A study of Mus musculus with 4 samples.

Results

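Of the 12477 regions of open chromatin that the deposited data list over 4 libraries of mouse subcutaneous white fat, 468 lay downstream of the gene nearest to them. For each merged region the linked gene entry with the smallest distance to a gene start was taken, and the region was kept where that distance was above 1000 bp, the deposited position was downstream and the chromosome was an autosome. The 468 regions were 4.35% of the 10764 autosomal regions linked to a gene. Of the other linked autosomal regions, 7618 lay within 1000 bp of a gene start, 2036 lay inside a gene and 642 lay upstream of it, while 1471 autosomal regions had no linked gene.

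The assay was ATAC-seq, whose Tn5 transposase inserts sequencing adapters into DNA that is not wrapped in nucleosomes. It was run on nuclei from frozen, ground fat of wild-type (WT) mice. There were 2 female and 2 male libraries, called female 1, female 2, male 1 and male 2 here. The labels give neither the age of the mice nor whether a sex's samples were of different mice. The spread between samples may thus be technical, and no p-value here can be taken to measure variation between animals. The limma p-values of single regions rest on a spread pooled over regions, as described below. All 4 samples were whole tissue, in which fewer nuclei with an open region and less opening per nucleus cannot be told apart.

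Open chromatin past the 3′ end of a gene can hold enhancers, insulators bound by architectural proteins, or the promoter of the next gene or of a noncoding RNA. The nearest gene on the sequence is a name for such a region and not proof of a target, since enhancers often act over longer distances and on other genes. In white fat, adipocytes store triglyceride, and the tissue also holds progenitors, endothelial and mural cells, macrophages and other immune cells.

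The libraries differed before any place was considered. Called intervals numbered 10238 and 8022 in females 1 and 2 and 5484 and 4049 in males 1 and 2. Male 2 stood apart, with a median interval width of 284 bp against 160 to 171 bp in the others and rank correlations of height with them of 0.59 to 0.65, where the others reached 0.82 to 0.84 among themselves (Spearman, 5899 regions). Of 31 adipocyte identity genes, 24 had a linked region. Of 9 defining adipocyte genes looked up, Pparg, Cebpa, Cidec, Lipe and Pnpla2 had a region, and Adipoq, Lep, Plin1 and Fabp4 had none.

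Some downstream regions lay on the promoter of another gene. Of the 455 members on chromosomes with a table of RefSeq starts, 41 (9.01%) lay within 1000 bp of a start, and in 20 of these the start was inside the region. None of the 41 starts belonged to the nearest gene itself; 15 were of protein-coding genes and 26 of lncRNA genes, and 9 of these start genes were entries of the deposited gene table. For 27 members a RefSeq promoter window overlapped the region, the window running from 250 bases before to 50 after a start (GRCm38.p6, the build that mm10 names). Shown here are the 250 bases before the start for 4 of these windows, because they show where open chromatin named by one gene fell on the start of another. Capitals mark the bases inside the downstream region; each sequence runs 5′ to 3′ on the strand of the start's gene.
Stard9, chr2:120628871-120629120, plus strand: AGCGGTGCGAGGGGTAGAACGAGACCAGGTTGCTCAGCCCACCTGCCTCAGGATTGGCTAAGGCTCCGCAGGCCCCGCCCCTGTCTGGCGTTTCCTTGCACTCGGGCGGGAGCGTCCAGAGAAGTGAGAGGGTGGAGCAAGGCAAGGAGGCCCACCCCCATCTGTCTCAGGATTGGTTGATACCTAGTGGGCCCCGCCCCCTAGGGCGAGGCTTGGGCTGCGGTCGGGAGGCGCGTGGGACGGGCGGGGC
Tsc22d1, chr14:76504260-76504509, plus strand: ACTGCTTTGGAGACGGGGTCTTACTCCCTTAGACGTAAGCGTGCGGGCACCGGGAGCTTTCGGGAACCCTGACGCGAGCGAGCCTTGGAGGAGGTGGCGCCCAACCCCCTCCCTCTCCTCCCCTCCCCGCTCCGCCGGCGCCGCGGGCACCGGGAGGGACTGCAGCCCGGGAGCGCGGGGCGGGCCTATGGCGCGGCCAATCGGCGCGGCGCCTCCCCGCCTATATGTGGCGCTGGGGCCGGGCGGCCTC
Garnl3, chr2:33130620-33130869, minus strand: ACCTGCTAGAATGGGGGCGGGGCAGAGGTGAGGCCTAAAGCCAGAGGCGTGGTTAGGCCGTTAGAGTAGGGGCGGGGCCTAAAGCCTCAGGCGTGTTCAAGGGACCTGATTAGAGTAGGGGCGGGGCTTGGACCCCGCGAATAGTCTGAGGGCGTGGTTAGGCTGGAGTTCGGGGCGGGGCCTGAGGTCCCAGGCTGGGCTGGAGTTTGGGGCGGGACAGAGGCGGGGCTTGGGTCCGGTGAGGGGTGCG
Ccnd3, chr17:47593217-47593466, plus strand: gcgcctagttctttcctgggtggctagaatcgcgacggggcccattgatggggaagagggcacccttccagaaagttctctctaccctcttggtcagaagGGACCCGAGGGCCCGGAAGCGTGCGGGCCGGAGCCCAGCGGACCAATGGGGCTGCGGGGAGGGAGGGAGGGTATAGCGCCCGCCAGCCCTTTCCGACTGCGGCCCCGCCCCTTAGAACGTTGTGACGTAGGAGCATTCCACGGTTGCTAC

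The Stard9 sequence, before the start of a kinesin gene, lay wholly inside the region named by Haus2, a subunit of the augmin complex of the mitotic spindle. The Tsc22d1 sequence, before the start of a TGF-beta-stimulated leucine zipper gene, lay wholly inside a region named by the transcript 4930444M15Rik, and the Garnl3 sequence inside the region of Ralgps1, an exchange factor for Ral GTPases, whose own start was 240118 bp away. Of the Ccnd3 sequence, which belongs to cyclin D3, the 150 bases next to the start lay inside the region of Bysl, a gene of ribosome assembly. The first 3 regions had peaks in all 4 libraries and the Bysl region in 3.

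Over the 27 windows the median GC content was 59.3%, against 63.0% in 5569 windows that overlapped a region near a start and 52.7% in all 32851 RefSeq windows. The median number of CpG dinucleotides was 20, against 24 and 7 in the same order. A GC box (GGGCGG, either strand) was in 19 of 27 windows (70.4%), against 74.3% and 35.7%. The CCAAT box (CCAAT, either strand) was in 12 (44.4%), against 43.1% and 37.4%. The TATA box (TATAAA, either strand) was in 2 (7.41%), against 4.97% and 13.6%, and the AP-1 site (TGANTCA, either strand) was also in 2 (7.41%), against 3.75% and 7.81%. Among the 4 windows printed, each held a GC box, and those of Stard9, Tsc22d1 and Ccnd3 also held a CCAAT box. These are matches of letters in the window, and no binding was measured.

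The 468 regions were short and spread over many genes. Their median width was 150.5 bp (76 to 1005), and their median distance to the start of the nearest gene was 15879.5 bp (1104 to 446199). Past the gene's end they lay a median of 4348 bp away (73 to 10176). They named 447 genes, of which 427 had 1 such region, 19 had 2 and Ube2d2a, a ubiquitin-conjugating enzyme, had 3. In 109 members the nearest gene was a predicted or Riken transcript, a microRNA or a pseudogene, with 10 microRNAs among them. Chromosome 2 held the most members, 48 of its 855 linked regions (5.61%).

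**Figure D1:**
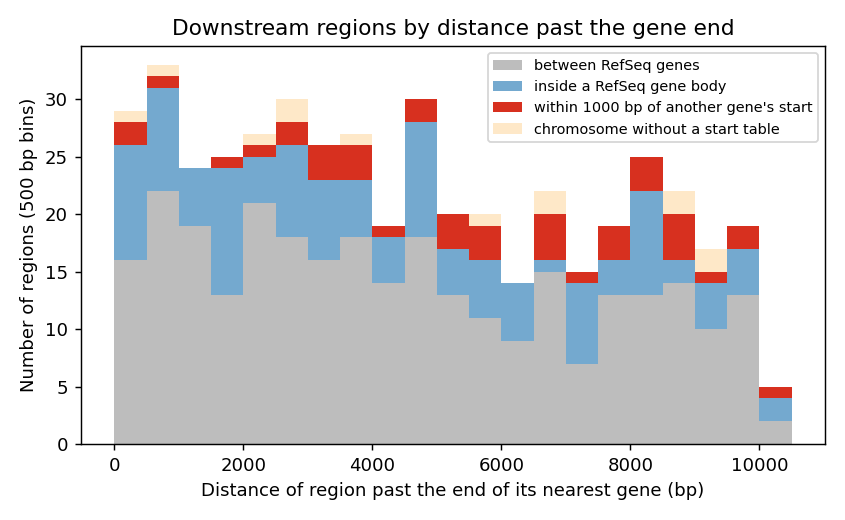
Number of downstream regions (y axis, 500 bp bins) by distance past the end of the nearest gene in bp (x axis), with colours for their position against RefSeq genes. The 468 regions spread over distances of 73 to 10176 bp, and the regions within 1000 bp of another gene's start number 5 of 138 up to 2500 bp and 14 of 107 beyond 7500 bp.

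The largest distances to a start came from long genes. The region of Grin2b, an NMDA receptor subunit, was 446199 bp from the start but 2510 bp past the deposited end of the gene, and that of Arid1b, a subunit of a chromatin remodelling complex, was 358078 bp from the start and 5471 bp past the end. Grin2b had heights of 13 and 9.04 in females 1 and 2 and 7.07 and 2.94 in males 1 and 2, with a peak called in female 1 alone. The Arid1b region also had a peak in female 1 alone, with a summit of 15. Both were low regions called in the same library. At the 1000 bp minimum, the members just inside were those of Mir3109 (1104 bp), Gm10282 (1310 bp) and Pth2 (1437 bp), and the regions just outside were those of Mir1956 (779 bp), LOC100503055 (677 bp) and Mir1893 (502 bp).

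By position against RefSeq genes, 119 of the 455 members with a start table lay inside a RefSeq gene body with no start within 1000 bp, 295 lay between genes and 41 lay at another start. For 15 of the 119 the body carried the symbol of the nearest gene itself, Grin2b, Frrs1 and Dock2 among them, so these lay past the gene's end in the deposited table but inside the gene by RefSeq. The share within 1000 bp of a RefSeq start was 9.01% for downstream regions, near the 9.25% of regions with no linked gene and below the 15.04% of regions inside genes and the 16.7% of upstream regions. The regions at another start were wider, with a median width of 216 bp against 166 bp inside gene bodies and 139 bp between genes. Peaks in all 4 libraries were called in 8 of 41 (19.5%) at another start, 10 of 119 (8.40%) inside gene bodies and 14 of 295 (4.75%) between genes. In male 1 the shares with a peak were 51.2%, 21.0% and 21.7% in the same order. In male 2 they were 26.8%, 21.0% and 15.6%.

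**Figure D2:**
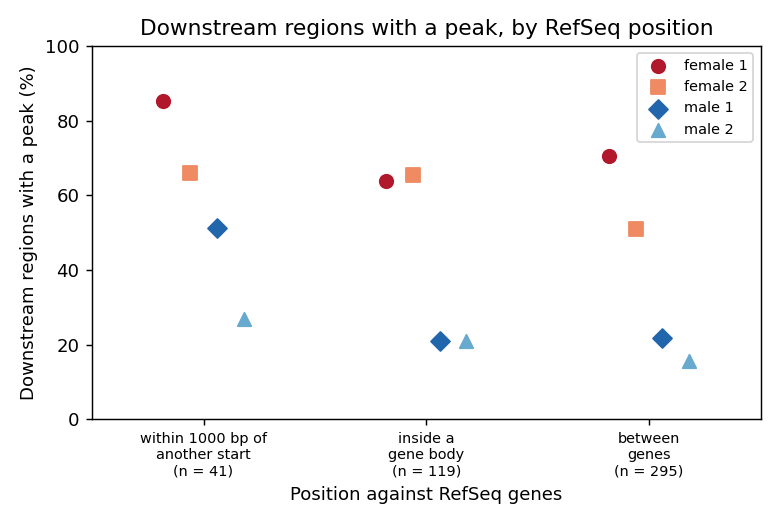
Percentage of downstream regions with a peak (y axis) in each library (points) by position against RefSeq genes (x axis, n regions below). Regions within 1000 bp of another start had a peak in male 1 in 51.2% of cases, against 21.0% inside gene bodies and 21.7% between genes.

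Female 1 had a peak in 69.7% of the 468 regions and female 2 in 56.0%. Male 1 had a peak in 24.4% of them and male 2 in 17.9%. Both females were above both males. The female mean was 62.8% ± 9.67 (SD, n = 2) and the male mean 21.2% ± 4.53 (SD, n = 2), a male minus female difference of -41.7 percentage points (exact permutation test, two-sided, p = 0.333, the smallest that 2 against 2 allow). The number of intervals called per library also differed, as given above. When the 4049 highest peaks of each library were kept, the shares were 15.4% and 18.8% in females 1 and 2 and 15.4% and 17.9% in males 1 and 2, and the difference was -0.43 points (exact permutation p = 1). With equal numbers of peaks, the sexes overlapped. Equal numbers remove any difference in total peaks between libraries by design. The comparison thus covers only the part of each library's highest peaks that lay at downstream regions.

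**Figure D3:**
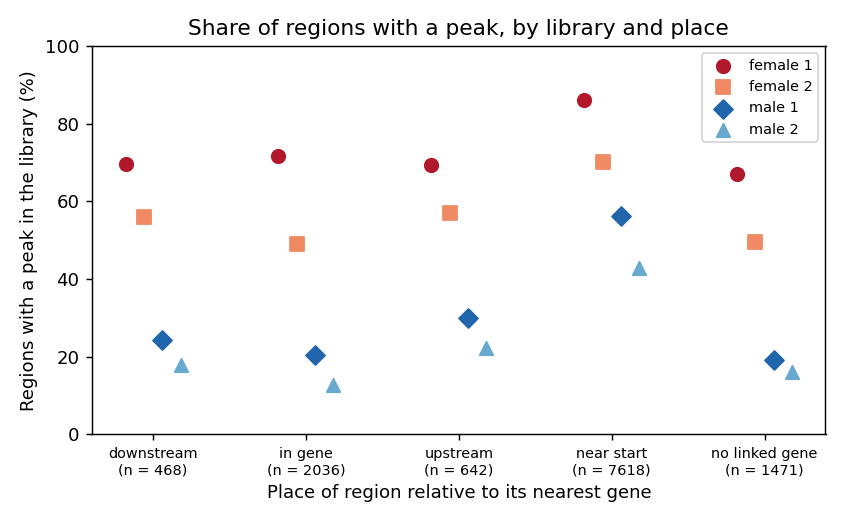
Percentage of autosomal regions with a peak (y axis) in each of the 4 libraries (points) by place of the region relative to its nearest gene (x axis, n regions below). Downstream regions had a peak in 69.7% and 56.0% of cases in the females and 24.4% and 17.9% in the males, below the regions near a start in every library.

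Against other places the downstream regions had peaks less often than regions near a start in 4 of 4 libraries, by a mean of 21.8 points (mean difference -21.8 ± 8.09, SD, n = 4). The exact paired permutation test gave the smallest p that 4 libraries allow, which is above 0.05. Against regions inside genes the mean difference was 3.54 ± 3.83 points and positive in 3 of 4 libraries (exact permutation p = 0.25). Against upstream regions it was -2.68 ± 2.70 points and positive in 1 of 4 (exact permutation p = 0.25). Neither of these was larger than the spread between libraries. Against regions with no linked gene it was 4.09 ± 2.20 points and positive in 4 of 4 (again the smallest exact p allowed), a comparison added to the others after the data were seen.

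Most downstream regions were called in few libraries. A peak was found in 1 library for 274 regions (58.5%), in 2 for 103 (22.0%), in 3 for 58 (12.4%) and in all 4 for 33 (7.05%, against 20% of all autosomal regions). The share in all 4 was 28.8% near a start, 4.03% inside genes, 9.97% upstream and 5.23% with no linked gene. A low share called in all 4 libraries was thus common to downstream regions and the other places away from starts. Female 1 alone gave 145 of the 468 regions, female 2 alone 88, male 1 alone 14 and male 2 alone 27. Peaks in both females and neither male were found in 74 regions (15.8%, against 12.8% of all autosomal regions and 15.9% of regions inside genes, 13.9% upstream, 13.7% with no linked gene and 11.5% near a start). Peaks in both males and neither female were found in 1 region (0.214%, against 0.458%), that of the zinc finger gene Zscan22, with summits of 10.6 in male 1 and 9.55 in male 2. The mixed pairs of 1 female and 1 male gave 12, 3, 6 and 7 regions. With equal numbers of peaks per library, the counts of 74 and 1 became 14 and 4. The share of all regions is not given for that setting, so these counts cannot be set against other regions.

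Width separated the regions that were called everywhere from the rest. All 33 members with peaks in all 4 libraries were among the 117 widest (227 to 1005 bp). Of the narrowest (76 to 102 bp), 120 of 123 (97.6%) had a peak in a single library, and male 2 had a peak in none of these 123 or of the 111 regions of 103 to 150 bp. Every merged region spanned exactly the intervals of its libraries, so its width takes part of its value from the same calls. By distance past the gene end, peaks in all 4 libraries were found in 3 of the 138 regions within 2500 bp (2.17%), 11 of 132 between 2500 and 5000 bp (8.33%), 8 of 91 between 5000 and 7500 bp (8.79%) and 11 of 107 beyond (10.3%). The share of regions at another gene's start also differed with distance, with 3.62%, 8.33%, 12.1% and 13.1% in the same bins, and its part in these counts was not tested.

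The 33 regions called in all 4 libraries were named by genes of several kinds. The region of P4ha2, a subunit of the collagen prolyl 4-hydroxylase, had summits of 99 and 99.5 in females 1 and 2 and 74.2 and 62.4 in males 1 and 2. That of Csrp1, a LIM domain protein of smooth muscle, had 85, 67.4, 45.2 and 16.9 in the same order. That of Mir26b, a microRNA encoded in an intron of Ctdsp1, had 76, 44.4, 41.7 and 26.4. In each of these 3 regions both females were above both males, and in each the lowest library was male 2. The region of Dhrs3, a retinal reductase, had heights of 48 and 32.1 in females 1 and 2 and 27.6 and 16.2 in males 1 and 2. That of Skor1, a SKI family corepressor, had 63, 45.2, 43.8 and 16.2 in the same order, and that of Gpr84, a receptor for medium-chain fatty acids on myeloid cells, had 66, 38.6, 43.8 and 22.0. Male 1 was thus above female 2 in the Gpr84 region, where the sexes overlapped. None of these last 3 regions passed the test of heights described below (adjusted p from 0.203 to 0.313 in limma).

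Heights of a region's own could be read for 202 of the 468 members (43.2%), those that were the only region of at least 1 gene. For a further 59 a height could be solved by subtraction from gene averages, and 207 had none, so the 202 are not all members. The median height of the 202 was 25 and 21.4 in females 1 and 2 and 15.2 and 9.55 in males 1 and 2. Over all 5899 regions with a height it was 37, 29.6, 24.0 and 14.0 in the same order, so downstream regions were lower in each library. Regions inside genes had medians of 26, 21.4, 14.8 and 8.81, which were near those of downstream regions, and regions near a start had 40, 31.2, 26.2 and 15.4. Female 1 held the highest of the 4 values in 132 of the 202 regions, and male 2 held the lowest in 158.

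The region of Btbd16, a BTB domain gene, was the highest by mean height, with 164 and 93.7 in females 1 and 2 and 83.4 and 63.9 in males 1 and 2. Both females were above both males, with female 1 far above the rest. Its log2 difference, male minus female on the log2(height + 8) scale used for all differences here, was -0.71 ± 0.38 (SE), with an adjusted p of 0.194 in limma. The next were those of Ifna13, an interferon alpha gene (119, 83.8, 59.4 and 29.4), and of Rab35, a GTPase of endosomal recycling (100, 71.5, 64.3 and 21.3, in the order female 1, female 2, male 1, male 2). Neither passed the test, although the sexes did not overlap in either. The region of Cyp2b19 followed when predicted genes are left out, with 65, 55.1, 60.1 and 25.7 in the same order. There male 1 was above female 2, so the sexes overlapped (log2 difference -0.50, adjusted p = 0.363 in limma).

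Regions on another gene's start were among the highest. The region of Haus2 at the Stard9 start had heights of 69 and 64.1 in females 1 and 2 and 47.4 and 22.0 in males 1 and 2. The region of Rab2b at the start of Chd8, a chromatin remodeller, had 67, 70.7, 49.5 and 14.0 in the same order. In both, male 1 was nearer to the females than to male 2, and neither passed the test (adjusted p = 0.177 and 0.132 in limma). The regions of Sfn, the 14-3-3 sigma protein (70, 64.1, 48.1 and 17.6), and Acvrl1, a BMP receptor of endothelium (82, 58.4, 37.5 and 20.6), were also among the 8 highest when predicted genes are left out.

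**Figure D4:**
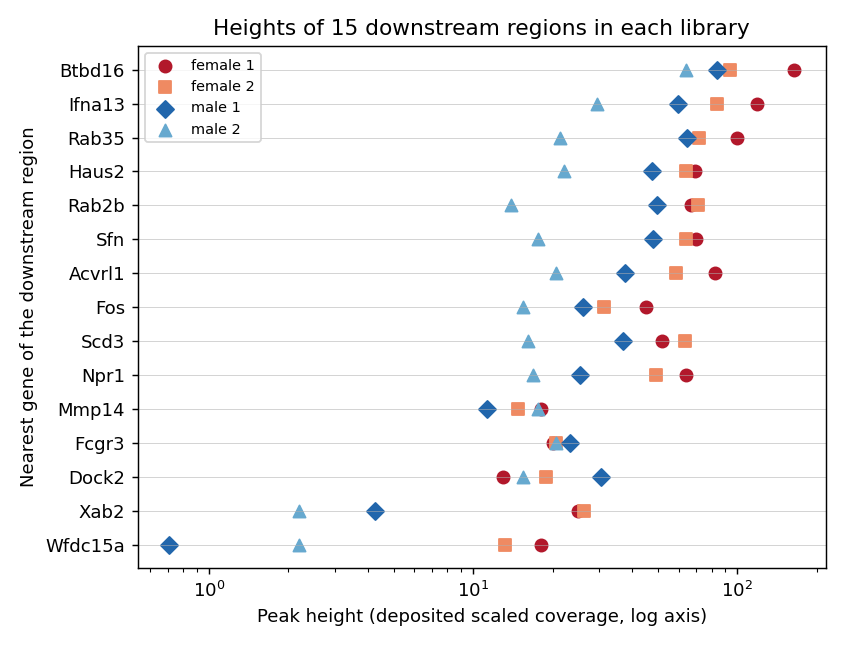
Peak heights (x axis, deposited scaled coverage, log axis) of 15 downstream regions (y axis, by nearest gene) in each library (points). The females lie to the right for most regions, while for Mmp14 and Dock2 the sexes overlap and for Fcgr3 the 4 libraries are nearly level.

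Heights were lower in males at nearly all downstream regions, as at regions of every place. The log2 difference was below 0 in 192 of the 202 regions and above 0 in 10. Its median was -0.68 over downstream regions and -0.65 over all 5899 regions, so relative to all regions it was -0.03. Both females were above both males in 147 regions (72.8%, against 71.4% of all regions), and both males above both females in 2 (0.990%, against 0.526%), those of Frrs1 and Fcgr3. The shares were near those of all regions.

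In limma, 5 of the 202 passed an adjusted p under 0.05 and all were lower in males (2.48%, against 0.729% of all regions), and 0 were higher (against 0%). At an unadjusted p under 0.05, 75 were lower (37.1%, against 28%) and 0 were higher. Regions inside genes passed in 2.03% of cases, upstream regions in 3.06% and regions near a start in 0.383%. In this fit limma gave each region the spread pooled over regions of similar height. The SE and p-value of a region thus do not reflect the spread of its own replicates. With each library centred on its median, 0 of the 202 passed, 9 were lower and 9 higher at an unadjusted p under 0.05, with adjusted p-values of 0.632 or more. Without male 2, 0 passed, and without male 1, 98 were lower (48.5%, against 50.9% of all regions). Without female 1, 1 passed (against 0.254%). With solved heights added, 6 of 261 members were lower (against 0.766% of 6785 regions), the sixth being that of Cspg4. None of the 5 calls held with centred libraries or without male 2. Without male 2 their log2 differences were -1.15 to -1.74, about as large as with it, in a fit with a lone male.

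**Figure D5:**
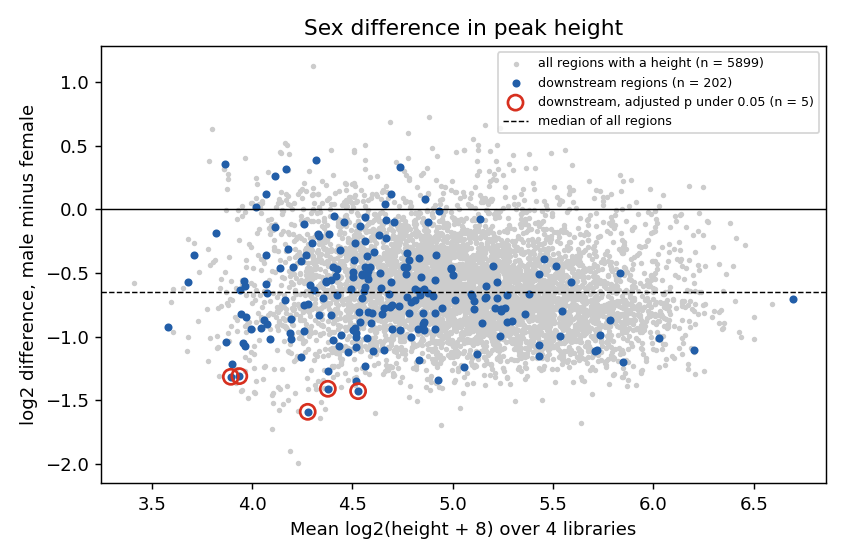
Male minus female log2 difference (y axis) against mean log2(height + 8) over the 4 libraries (x axis) for all 5899 regions with a height (grey) and the 202 downstream regions (blue), with the 5 that passed circled in red. The downstream regions lie around the median of all regions, -0.65 (dashed line), and the 5 circled regions lie at the lower edge.

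The region with the smallest adjusted p lay 144 bp past the end of Xab2, whose product takes part in transcription-coupled repair and splicing (mm10, chr8:3609899-3609994). Its heights were 25 and 26.3 in females 1 and 2 and 4.24 and 2.20 in males 1 and 2. The females were near each other and both males were far below them. In whole steps of the deposited scale, taken as tags, the same heights were 25, 32, 6 and 3. The log2 difference was -1.59 ± 0.38 (SE), with an adjusted p of 0.0236 in limma, and -0.96 with centred libraries (adjusted p = 0.632). Without male 2 the log2 difference was -1.46, with an adjusted p of 0.291.

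The region 2088 bp past Wfdc15a, a gene of the whey acidic protein family of protease inhibitors (chr2:164196746-164196822), had heights of 18 and 13.2 in females 1 and 2 and 0.707 and 2.20 in males 1 and 2. The male values were 1 and 3 tags, so they rest on very few reads. Its log2 difference was -1.32 ± 0.36 (SE), with an adjusted p of 0.0461 in limma. The other 3 calls carried predicted or Riken names and are named here after their values were seen. The D630003M21Rik region (37, 23.8, 7.07 and 5.14 in the order female 1, female 2, male 1, male 2; log2 difference -1.43, adjusted p = 0.0440 in limma) lay 43 bp from the RefSeq start of the transcript Gm34514. The regions of 1700036A12Rik (29, 23.02, 2.12 and 8.08; -1.41, adjusted p = 0.0440) and Gm10826 (15, 17.3, 2.83 and 0.734; -1.31, adjusted p = 0.0480) completed the set. In all 5 the sexes did not overlap, and no male library had a called peak.

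Further regions had large differences that did not pass. That of Nkain1, a gene for a protein that binds the sodium pump, had heights of 47, 34.5, 18.4 and 5.87 in the order female 1, female 2, male 1, male 2 (log2 difference -1.34, adjusted p = 0.0860 in limma). That of Scx, the transcription factor scleraxis of tendon, had 40, 30.4, 17.7 and 5.87 (-1.19, adjusted p = 0.114 in limma). In both, both females were above both males and male 2 was the lowest. The regions of Fam189a2 (21, 27.9, 4.95 and 5.87; -1.27, adjusted p = 0.0759 in limma) and Pfdn4 (14, 15.6, 1.41 and 2.20; -1.22, adjusted p = 0.0728 in limma) differed in this. There male 1 was the lowest, with both females again above both males. In those of AU022754, Pfdn1, Npr1 and Hhipl2, named by the same rule, male 2 was the lowest.

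No region was called higher in males. The largest positive differences were those of Utf1, a chromatin-associated gene of stem cells (0.38), Frrs1, a ferric reductase (0.36), and Dock2, an exchange factor for Rac in blood cells (0.34), with adjusted p from 0.416 to 0.496 in limma. The Dock2 region had heights of 13 and 18.9 in females 1 and 2 and 30.4 and 15.4 in males 1 and 2. Here male 1 was the highest and the sexes overlapped. Without male 1 the Dock2 difference was -0.02.

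Of the genes on 18 lists of fat metabolism, cell type markers and signalling, 22 of 344 linked regions were downstream (6.40%, against 4.35% of all linked regions), on 13 lists. Of these 22, 6 had a height of their own and 0 passed the limma test, in either direction. Cspg4, whose height was solved by subtraction, passed when solved heights were added, in a fit without centring.

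Among genes of lipid metabolism, regions downstream of stearoyl-CoA desaturases, which make monounsaturated fatty acids, stood in a cluster on chromosome 19. The region past Scd3 had heights of 52 and 63.3 in females 1 and 2 and 36.8 and 16.2 in males 1 and 2. Both females were above both males, and the log2 difference of -0.99 ± 0.45 (SE) did not pass (adjusted p = 0.154 in limma). The region past Scd1 had summits of 27, 18.1, 25.4 and 10.3 in the same order, so there the sexes overlapped. The region past Scd2 had a peak in male 1 alone, with a summit of 24.0. The region of Dgat2, the enzyme of the last step of triglyceride synthesis, had peaks in both females (49 and 57.5) and in neither male, while that of Mogat2 had heights of 20, 9.04, 10.6 and 6.61, with overlapping sexes.

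Among hormone and cytokine signalling genes, the region of Npr1, the receptor guanylyl cyclase for atrial natriuretic peptide, had heights of 64 and 49.3 in females 1 and 2 and 25.4 and 16.9 in males 1 and 2. The sexes did not overlap, and the log2 difference of -1.15 ± 0.44 (SE) did not pass (adjusted p = 0.128 in limma). A pair of regions lay past Socs3, an inhibitor of cytokine and leptin receptor signalling, at 2522 and 3686 bp from its end. The nearer had summits of 49 and 41.9 in the females and 30.4 in male 1, and the farther had 46 and 43.6 in the females alone. Both lacked a peak in male 2.

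Among transcription factors, the region 8779 bp past Fos, a subunit of AP-1, was called in all 4 libraries, with heights of 45 and 31.2 in females 1 and 2 and 26.2 and 15.4 in males 1 and 2 (log2 difference -0.69, adjusted p = 0.236 in limma). Of the pair of regions past Tef, a PAR bZIP factor of circadian output, the nearer was called in all 4 libraries (48, 33.7, 28.3 and 14.0 as summits) and the farther in female 1 and male 1 (43 and 28.3). The region of Irf1, an interferon response factor, had peaks in both females (27 and 31.2) and in neither male. In the Fos region and the nearer Tef region male 2 was the lowest and both females were above both males.

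Among adipocyte and thermogenic genes, the region past Cidea, a lipid droplet protein, had heights of 27 and 22.2 in females 1 and 2 and 24.7 and 11.01 in males 1 and 2, and the sexes overlapped (log2 difference -0.38, adjusted p = 0.449 in limma). That of Nampt, an enzyme of NAD synthesis, had a peak in female 1 alone (21), and that of Ckb, the brain-type creatine kinase, in female 2 alone (24.7).

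Regions of markers of other cell types were few, but so were linked regions of any place on those lists. Downstream were 1 of 11 for fibroblasts and progenitors, 1 of 9 for endothelial and mural cells and 1 of 5 for myeloid cells. For Schwann cells and neurons it was 1 of 5 (Pmp22, with a peak in female 2 alone), for lymphoid cells 0 of 9 and for epithelium 0 of 5. The region of Fcgr3, an Fc receptor of myeloid cells, had heights of 20 and 20.6 in females 1 and 2 and 23.3 and 20.6 in males 1 and 2, so the 4 libraries were nearly level and its difference of 0.08 did not pass (adjusted p = 0.874 in limma). The region of Mmp14, a membrane metalloproteinase on the extracellular matrix list, had 18, 14.8, 11.3 and 17.6, with overlapping sexes and a peak called in male 2 alone. The region of the progenitor factor Twist2 had peaks in female 2 and male 2 (31.2 and 16.2), and that of Cspg4, a proteoglycan of pericytes, in the females alone (34 and 22.2). The solved heights of the Cspg4 region were 34 and 22.2 in females 1 and 2 and 4.95 and 4.41 in males 1 and 2, so the sexes did not overlap. Its log2 difference was -1.49, with an adjusted p of 0.0328 in limma. Solved heights were added after the data were seen, and no fit with centred libraries or without male 2 was run on them. The part of cell composition in these values was not tested.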

How the data were processed

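ATAC-seq of nuclei from 2 female and 2 male samples of mouse subcutaneous fat was amplified by PCR in 10 cycles, as the labels' protocols say. Per the submitters' processing notes, BWA, MACS2 2.1.0 and mm10 were used; read filters, duplicate handling and a Tn5 read shift are steps not given in the sources used here. Called intervals depend on depth and background.

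The authors deposited a coverage signal, the peak's height averaged over a gene's regions. Heights of single regions fell, to within 2% of a step, on whole multiples of a step (1.0, 0.822, 0.707 and 0.734 for females 1 and 2 and males 1 and 2) in 100% of cases; the authors' scaling is not explained in the sources used here. Total reads per library are unknown. Other deposited columns hold peak presence and interval names. Per-library columns left unused numbered 0.

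A region's height was taken where it was the only region of a gene. Heights above 0 in at least 2 libraries, as log2(height + 8) with the 5th percentile, rounded up, as pseudocount, were fitted with limma 3.58.1 (trend, no replicate block; R 4.3.3) over 5899 regions, with Benjamini-Hochberg adjustment and a threshold of 0.05. The scale understates changes of low regions. With these settings the spread was pooled over regions of similar height, with no weight on a region's own replicates. A peak was an interval overlapping a region by at least 1 bp. Tables and figures were made with matplotlib 3.10.9, numpy 2.4.6, scipy 1.17.1, pandas 2.3.3 and Python 3.11.15. RefSeq starts and sequences are from GRCm38.p6; 13 members on chromosome 18 had no start table.

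The members, the 18 lists and the tests were chosen with earlier results of these data known. Members were named by rule: those with the largest differences in each direction, the 8 highest, those called in both males only, the 6 farthest, genes with 3 or more members, up to 3 per list, and those beside the 1000 bp minimum, leaving out predicted genes where another was next. Members called in all 4 libraries or printed as sequences were chosen after their values were seen.

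Replicate numbers are not said to pair samples. The correlation of female 1 minus female 2 with male 1 minus male 2 was 0.01. Alternatives covered the pseudocount (1 and 32), filters, centring, quantile normalization, trend, a replicate block, gene rows, summit-track heights, the distance minimum (500 and 2000 bp), peak numbers and each library left out. Heights solved by subtraction, centred summit heights and leaving out members near a RefSeq start were added after seeing the data.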

Additional observations from a re-analysis of the deposited data

How the results depend on the processing

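The direction of the median difference of downstream regions was negative in every alternative run, but its size followed the scaling. The count of regions called lower in males was 5 with the main settings (2.48%, against 0.729% of all regions). It was 3 with a pseudocount of 1 (1.49%, against 0.542%) and 1 with a pseudocount of 32 (0.495%, against 0.373%). Without trend it was 1 (0.495%, against 0.356%). With centred libraries and with quantile normalization it was 0, as over all regions. A filter at the 25th percentile (85 members tested) also gave 0, as over all regions, but it left out the 5 called regions. The count was 11 of 1257 with gene rows (0.875%, against 0.567% of all gene rows), a wider set of genes whose regions are not all members. It was 73 of 194 (37.6%, against 21.8% of all regions) with summit-track heights, where a library without a peak counts as 0 and 1 member (57 of all 7401 regions) was called higher, and 0 with those heights centred. The block on replicate number gave 94 calls (46.5%, against 42.8% of all regions), although nothing in the labels pairs the samples. Leaving out 1 library gave 0 to 98 calls, 0 without male 2 and 98 without male 1, where the lone male is assumed to vary like the females.

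The median log2 difference of -0.68 was -0.35 with a pseudocount of 32, -0.051 with centred libraries, -0.069 with quantile normalization, -1.54 with summit-track heights (all regions -1.15) and -0.032 with these centred (all regions 0.36). Relative to all regions it was thus -0.39 with summit-track heights, against -0.03 with the heights of the gene table; leaving out 1 library gave -0.93 to -0.43. Peaks in both females and neither male fell from 74 to 14 regions with equal numbers of peaks per library, and peaks in both males and neither female went from 1 to 4. Leaving out 1 library gave 85 to 219 and 2 to 28, since fewer libraries must then share or lack a peak. Shares of all regions are not given for these settings, so the counts say nothing particular to downstream regions.

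Of single regions, Dock2 and Prss30 turned to -0.021 and -0.0029 without male 1 (up to 0.69 and 0.63 when another library was left out), and Actrt3 to -0.37 without male 2 (up to 0.89). Slc16a12 turned to -0.11 without female 2 (up to 0.35), and LOC101055659 to -0.32 without female 2 and -0.51 without male 1 (up to 0.59). Neu4 turned to -0.010 with a pseudocount of 32, -0.54 without female 1 and -0.32 without male 2 (up to 0.57). None of these 6 had passed. The cause of these changes was not tested. In the 5 called regions the male heights rest on 1 to 11 tags. Depth was not given, and small differences between downstream regions may not have been detectable.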

Other observations

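On the sex chromosomes, left out above, 5 regions lay downstream of their nearest gene. The X-linked region of Tspyl2 was called in all 4 libraries, with summits of 43 and 44.4 in females 1 and 2 and 24.0 and 42.6 in males 1 and 2. The region named by Mid1, listed on chromosome Y, had summits of 84 and 77.3 in the females and 43.8 in male 1. Both females thus had a peak at a region listed on Y, and the source of these reads was not tested. Efnb1, a membrane-bound ephrin, named an X-linked region with a peak in female 1 alone (37).

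The 3 members past Ube2d2a on chromosome 18 lay close to each other and were called in different libraries. The nearest to the gene had summits of 61 in female 1, 55.1 in female 2 and 29.7 in male 1, the next had 13.2 in male 2 alone, and the farthest had 23.8 in female 2 alone.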
